A study of Mus musculus with 13 samples.

Results

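Enzymes and binding proteins that write, remove or read DNA methylation and histone marks were followed in RNA of enriched Sertoli cells from adult male mice. The group holds 52 genes, matched exactly by symbol to the deposited count table, out of 27111 features with a gene name. The list was chosen with earlier results of these data known. Their levels in control males were described first, and samples of males exposed to early postnatal stress were then compared with the controls. All mice were C57Bl/6J wild-type males of 3 to 5 months, with no transgene or allele in either group. MSUS males (7 samples) had been separated from the mother without warning for 3 h per day on postnatal days 1 to 14, while the mother was placed in water of 18 °C for 5 min or restrained in a tube for 20 min. Control males (6 samples) and their mothers were left undisturbed. Each sample was 1 mouse, and the cells were sorted from digested testis by diploid Hoechst signal, large size and high MitoTracker signal, without a lineage marker. Samples are named below by group and mouse number.

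DNA methyltransferases place a methyl group on cytosine in CG dinucleotides, TET enzymes oxidize it, and methyl-CpG binding proteins recruit repressive complexes to it. Acetyltransferases and deacetylases set histone acetylation, while lysine methyltransferases and demethylases set methyl marks that go with active promoters (H3K4), transcribed genes (H3K79) or silent chromatin (H3K9 and H3K27). Sertoli cells of the adult testis nurse the germ cells and no longer divide.

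Control samples held 13087203 to 18649945 estimated counts each, and MSUS samples 12701776 to 15693938. Sertoli markers (*Amhr2*, *Clu*, *Ctsl*, *Rhox5*, *Sox9*) averaged 10.18 ± 0.10 log2 CPM in controls and 10.15 ± 0.09 in MSUS samples (SD, n = 6 and 7). Elongated spermatid markers were present at 7.90 ± 0.23 and 8.09 ± 0.46, and spermatocyte markers at 4.45 ± 0.15 and 4.23 ± 0.43. Endothelial markers were at 2.07 ± 0.20 and 2.31 ± 0.16 (exact permutation p = 0.0262 before adjustment). The 10 marker lists had no adjusted p below 0.262 (exact permutation test over samples, two-sided). *Malat1*, a nuclear-retained noncoding RNA, had 9.16 to 10.69 log2 CPM in controls and 10.16 to 11.28 after MSUS (exact permutation p = 0.0274, adjusted over 5 measures of depth and quality 0.137). MSUS 26 and control 10 stood apart for the genes described here, and results are given with and without them. The labels name no batch within this sequencing. In such bulk RNA, fewer cells of a type and less RNA per cell cannot be told apart.

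Most of these genes were well covered by reads. After the filter on low counts, 50 of the 52 remained in the test. On the log2 CPM scale, which follows the number of reads and does not correct for length, the median control value of these 50 was 5.99, against 4.31 for all 14421 genes tested, and 39 of them lay above the median gene. *Dnmt3l*, the catalytically inactive partner of the de novo methyltransferases in germ cells, had 0 to 22 counts per sample, and *Hdac8*, a class I deacetylase, had 0 to 5, so neither was tested. Levels are compared between genes below only per length, as log2 RPKM, that is normalized CPM per kilobase of summed exons.

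*Hdac6*, the cytoplasmic deacetylase that acts on tubulin, had the highest level per length of the whole group, 5.97 ± 0.14 log2 RPKM in controls (SD, n = 6), or 63.0 ± 6.12 RPKM. *Mbd3* and *Mbd2*, which belong to the NuRD repressor complex, followed at 5.28 ± 0.06 and 5.19 ± 0.15, and *Mbd1*, a methyl-CpG binding repressor, was at 3.30 ± 0.09. *Hdac7*, a class IIa deacetylase, was the lowest of the 50 at -2.24 ± 0.64. The zinc-dependent deacetylases thus held both ends of the range.

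Among the DNA methyltransferases, maintenance enzyme *Dnmt1* was highest at 2.10 ± 0.15 log2 RPKM in controls, and among those tested *Dnmt3b*, a de novo enzyme, was lowest at -0.12 ± 0.43. *Dnmt3b* counts were fractional in all 13 samples and added up to whole numbers with 1 feature that has no gene name, which took 64.2% of the joint counts. With that feature added, the control level of *Dnmt3b* was 3.86 ± 0.18 log2 CPM in place of 2.23 ± 0.43, or 1.51 in place of -0.12 log2 RPKM. *Hdac1*, *Sirt1* and *Kmt2d* also had fractional counts in all 13 samples, and *Tet1*, *Tdg*, *Crebbp*, *Sirt3*, *Setdb1*, *Ehmt2* and *Kdm5a* in 12. No partner feature was found for these genes, so the part of shared counts in their levels is not known. Of the enzymes that oxidize and excise methylcytosine, the glycosylase *Tdg* was highest at 2.65 ± 0.11 log2 RPKM and *Tet1* lowest at -0.97 ± 0.28.

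Levels also differed within each family of histone enzymes. *Sirt2* was the highest sirtuin at 3.20 ± 0.10 log2 RPKM and *Sirt6* the lowest at 0.95 ± 0.14. Among acetyltransferases, *Kat2b* (PCAF) was highest at 4.61 ± 0.06 and *Kat2a* (GCN5) lowest at 2.86 ± 0.17. In Polycomb repressive complex 2, which methylates H3K27, the scaffold *Suz12* was highest at 3.94 ± 0.12 and *Eed*, which binds the mark, lowest at 2.33 ± 0.20, close to *Ezh2* at 2.37 ± 0.08. With the longest transcript in place of summed exons, *Ezh1* (4.55) was above *Suz12* (4.16) over all 13 samples. *Ehmt2* (G9a) led the H3K9 methyltransferases at 5.02 ± 0.10, with *Suv39h1* at 0.62 ± 0.16. *Kmt2d*, an enhancer H3K4 methyltransferase, led its group at 4.45 ± 0.30, with *Kmt2a* (MLL1) at 1.99 ± 0.25. Among demethylases, *Kdm1a* (LSD1), which acts on H3K4 in repressor complexes, was highest at 5.09 ± 0.05 and *Kdm2a* lowest at 2.97 ± 0.13.

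**Figure D1:**
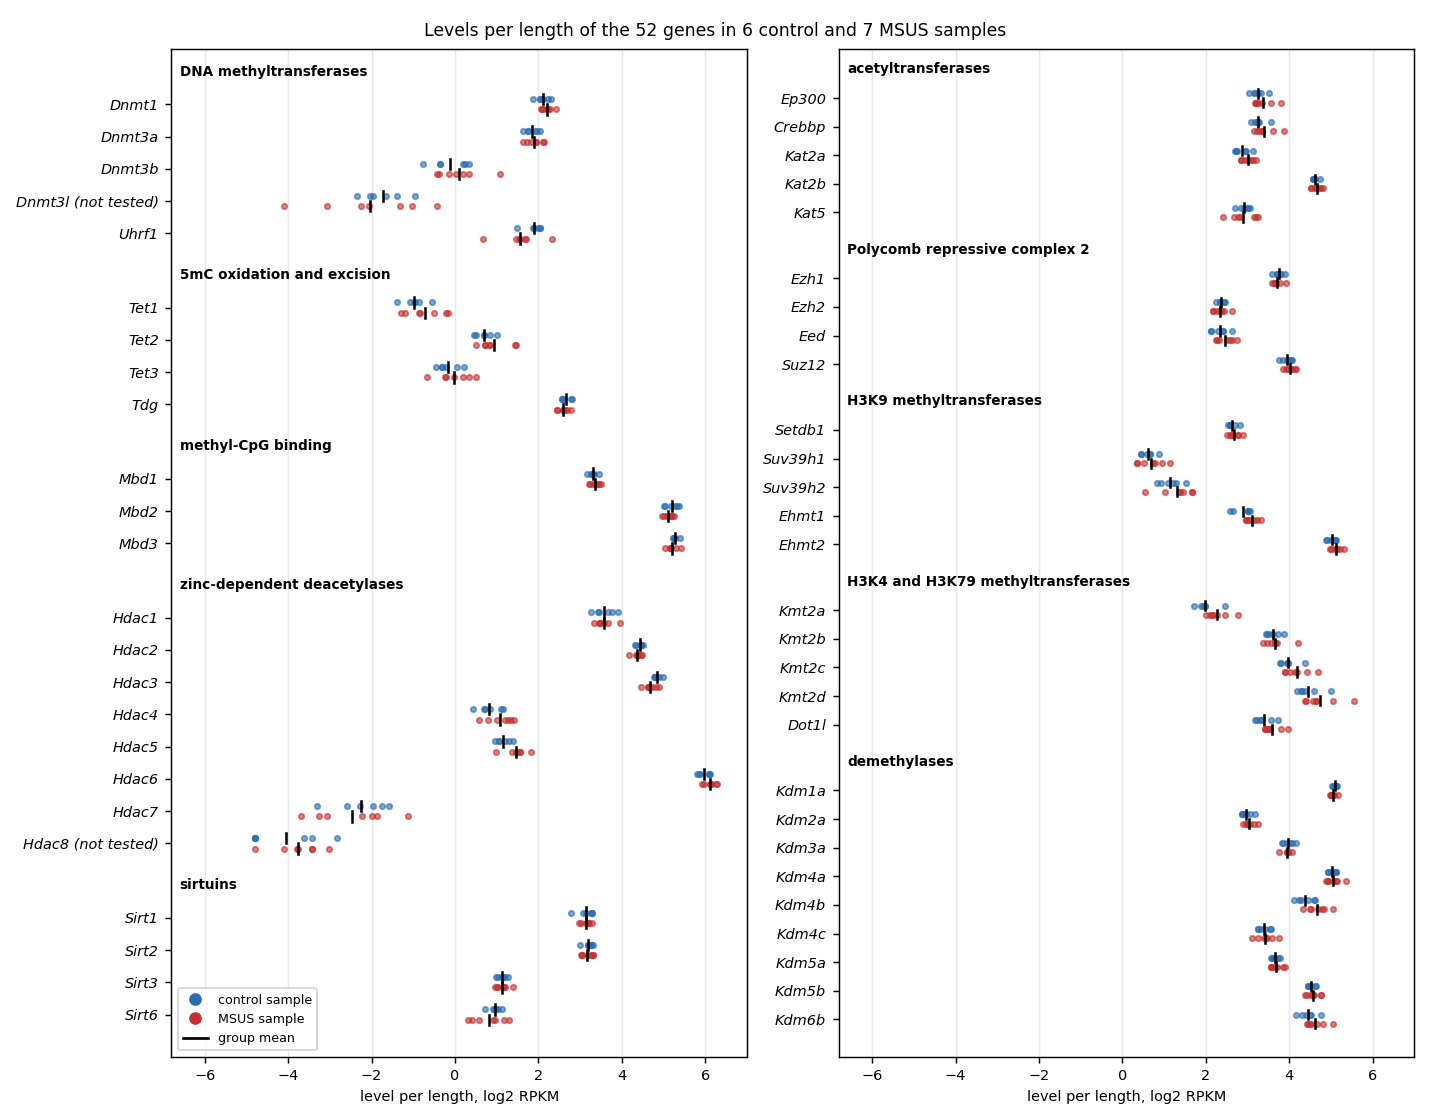
Level per length (horizontal axis, log2 RPKM) of each of the 52 genes, grouped by role. Each point is 1 sample (blue control, n = 6, red MSUS, n = 7) and the vertical bar is the group mean. *Hdac6* stands at the top with 5.97 and *Hdac8* at the bottom with -4.04 in controls, and the colours overlap in every gene tested.

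Related enzymes often differed in level by more than the spread between mice. Of 22 related pairs compared within the same 13 samples, 19 differed with an adjusted p below the threshold of 0.05 (exact sign-flip permutation test, two-sided, adjusted over the 22 pairs, smallest possible p 0.000244). *Ezh1*, the H3K27 methyltransferase typical of non-dividing cells, was higher than *Ezh2*, typical of dividing cells, in 13 of 13 samples. The difference was 1.37 ± 0.15 log2 RPKM (SD, adjusted permutation p = 0.000358), or 2.59-fold (1.91-fold with the longest transcript as length). *Ehmt2* exceeded its partner *Ehmt1* (GLP) by 2.08 ± 0.10 on this scale, or 4.22-fold, also in 13 of 13 samples. *Kat2b* exceeded *Kat2a* 3.23-fold and *Suz12* exceeded *Eed* 2.99-fold, or 1.82-fold when the longest transcript stood in for the summed exons as length.

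On the DNA methylation side, *Dnmt3a* was above *Dnmt3b* by 1.88 ± 0.49 log2 RPKM as the counts were deposited. The size of that gap depends on the shared counts of *Dnmt3b* described above. With the shared feature added, controls had 1.51 log2 RPKM for *Dnmt3b* and 1.84 ± 0.16 for *Dnmt3a*, and this difference was not tested. *Tet2* exceeded *Tet1* 3.16-fold (5.41-fold with the longest transcript as length) and *Tet3* 1.88-fold, in each case in 13 of 13 samples. *Dnmt1* was above *Dnmt3a* in 11 of 13 samples by 0.28 ± 0.19, but below it by 0.17 (log2 RPKM difference of -0.17) when the longest transcript stood in for the summed exons.

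Among the H3K9 and H3K36 demethylases, *Kdm4a* was above *Kdm4b* by 0.51 ± 0.17 and *Kdm4b* above *Kdm4c* by 1.13 ± 0.20 log2 RPKM, or by 0.75 with the longest transcript. The pairs that were not separated were *Mbd2* and *Mbd3* (difference -0.09, range over samples -0.44 to 0.16, adjusted permutation p = 0.141), the coactivators *Ep300* and *Crebbp* (-0.03, range -0.17 to 0.20, adjusted permutation p = 0.288) and *Sirt1* and *Sirt2* (-0.04, range -0.52 to 0.23, adjusted permutation p = 0.537). With the longest transcript as length, *Mbd2* was above *Mbd3* by 0.38 and *Ep300* above *Crebbp* by 0.22, so the order of these pairs depends on the length used. By that length *Sirt2* was above *Sirt1* in 13 of 13 samples, 2.03-fold (adjusted permutation p = 0.000316).

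CG dinucleotides, the substrate of the methyltransferases in the group, were frequent in the promoters of the group itself. RefSeq promoter windows of 300 bases (250 before and 50 after the start, GRCm38.p6) were matched for 43 of the 52 genes, and the window with most CG was taken for each. The letters CG, which read the same on both strands, occurred a median of 29 times (6 to 57) in these 43 genes and 21 times in all genes tested with a window, and 80.5% of the latter had at least 10. All 41 genes tested in the group that had a window reached 10 (100%). *Dnmt3l* and *Hdac8*, the genes with almost no counts, had 6 each, a number that 58.2% of all promoters in the table reach. *Hdac7* went the other way, with 35 CG, which 7.76% reach. Its level per length in controls was below that of *Dnmt3l* (-2.24 against -1.73 log2 RPKM). At least 1 CG was present in 94.6% of all promoters.

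Promoters of 4 genes are printed to show low and high counts of CG. They were chosen after values were seen as the almost silent *Dnmt3l*, the most abundant *Hdac6*, and *Kmt2c* and *Tet2*, which had the most CG and are described further below. Each run is the 150 bases just before the RefSeq start, read 5′ to 3′ on the strand of the gene, with CG in capitals. They lie at chr10:78042137-78042286 on the plus strand (*Dnmt3l*), chrX:7947890-7948039 (*Hdac6*), chr5:25498784-25498933 (*Kmt2c*) and chr3:133544391-133544540 (*Tet2*), the last 3 on the minus strand of GRCm38.p6. No exon of GENCODE vM21 overlaps the windows of *Dnmt3l* and *Tet2*, which fall in the first part of the longer gene spans given there.
Dnmt3l: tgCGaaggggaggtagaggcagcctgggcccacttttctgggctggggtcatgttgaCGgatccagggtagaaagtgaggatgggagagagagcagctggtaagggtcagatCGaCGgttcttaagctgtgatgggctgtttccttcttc
Hdac6: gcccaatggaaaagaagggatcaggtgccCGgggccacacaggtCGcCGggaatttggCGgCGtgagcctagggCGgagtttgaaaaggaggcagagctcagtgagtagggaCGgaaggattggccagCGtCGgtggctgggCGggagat
Kmt2c: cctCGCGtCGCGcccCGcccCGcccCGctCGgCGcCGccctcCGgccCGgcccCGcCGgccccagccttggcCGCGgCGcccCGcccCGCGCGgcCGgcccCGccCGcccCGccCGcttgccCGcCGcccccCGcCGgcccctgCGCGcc
Tet2: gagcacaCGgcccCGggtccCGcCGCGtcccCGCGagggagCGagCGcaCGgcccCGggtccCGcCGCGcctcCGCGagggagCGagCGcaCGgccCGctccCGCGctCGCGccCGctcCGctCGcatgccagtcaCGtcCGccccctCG
The printed stretch of *Dnmt3l* holds 4 CG and that of *Hdac6* 10, against 32 in *Kmt2c* and 30 in *Tet2*. Over the whole 300 bases *Kmt2c* has 56 and *Tet2* 57, which 0.233% and 0.181% of all promoters in the table reach. *Hdac6* with 20 CG in its window had a higher level per length than *Kmt2c* (3.97 log2 RPKM) and *Tet2* (0.70). Since these 4 genes were picked by level or by CG, they cannot show whether abundance follows this count.

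The second question was whether early postnatal stress left these genes at another level in adult Sertoli cells. Differences were small, and none passed correction for multiple testing (limma voom, lowest adjusted p 0.878, over 14421 genes). At an unadjusted p under 0.05, the threshold of the study, 5 of the 50 genes tested passed (10%), beside 5.42% of all genes tested. *Kdm4b*, *Hdac5*, *Ehmt1* and *Kmt2a* were higher in MSUS samples (background for higher genes 3.02%), and *Hdac3* was lower (background 2.40%). Over the 50 genes the log2 fold change ran from -0.36 to 0.31 with a median of 0.064, and 34 were above 0 (68.0%), beside a median of -0.002 and 49.5% above 0 over all genes tested. In an exact permutation test of single genes over samples, added after values were seen, *Ehmt1* and *Kmt2a* were above 0.05. In 0 of the 50 did the values of the groups lie apart without overlap, beside 0.132% of all genes tested.

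For 37 of the 50 genes the 95% interval of the log2 fold change lay within 0.5 of 0 in either direction. The other 13 had an interval that reached further, among them *Hdac7* (4 to 32 counts per sample, -1.21 to 0.67) and *Dnmt3b* (-0.32 to 0.75). The median coefficient of biological variation of the 50 was 11.9%, against 15.5% over all genes tested.

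**Figure D2:**
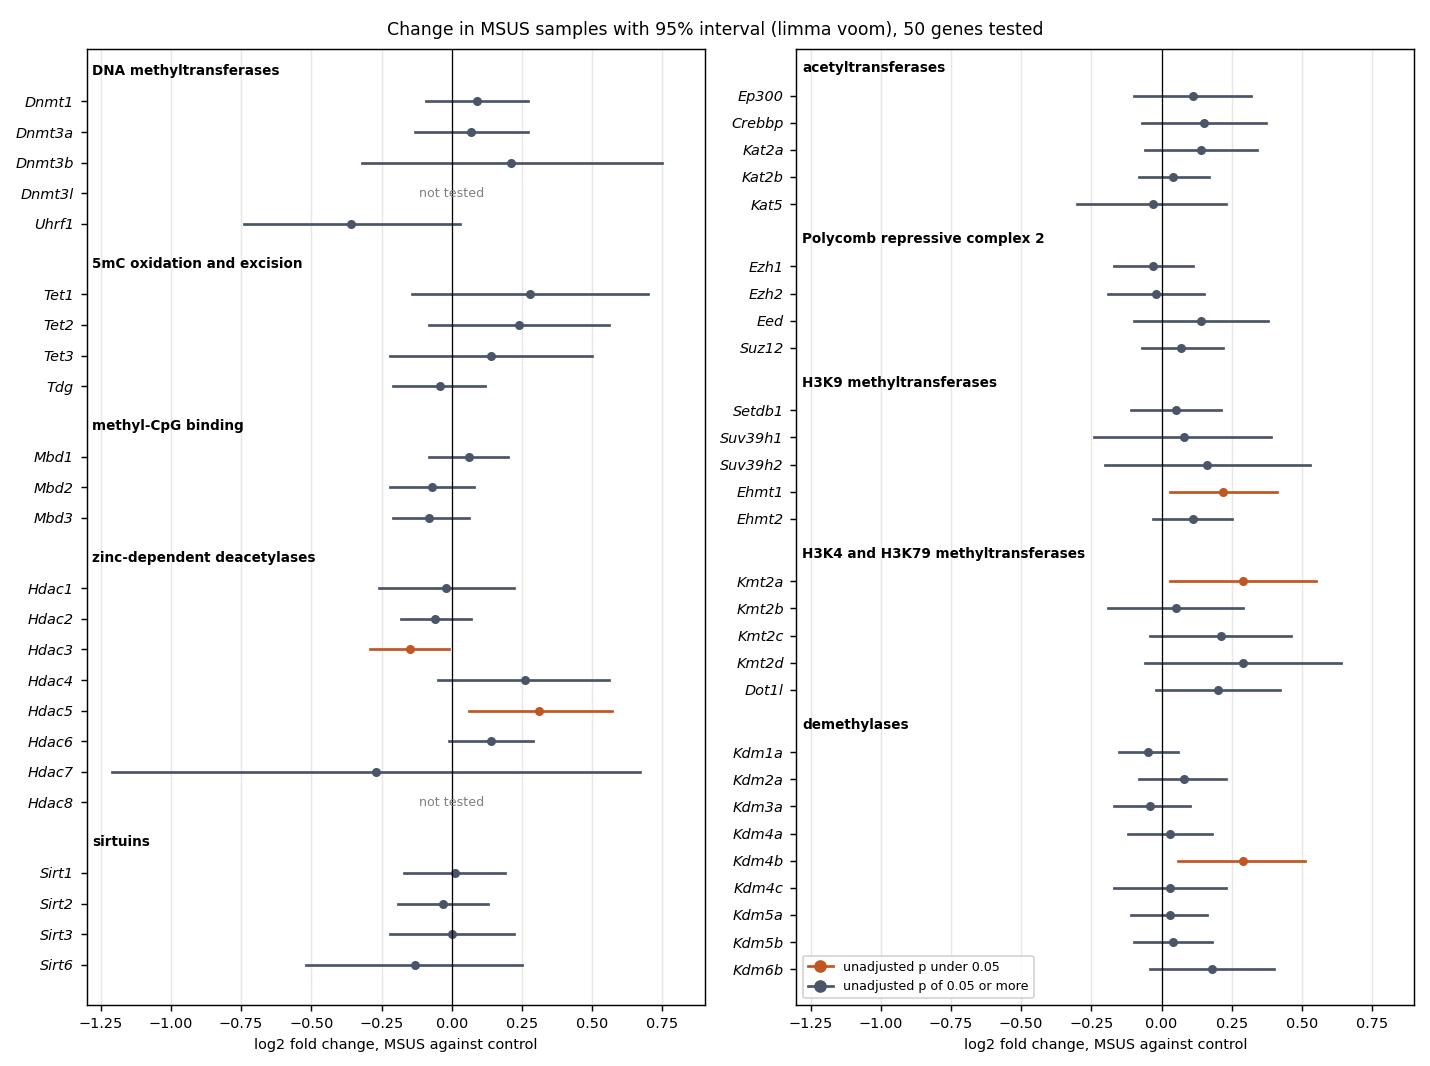
Log2 fold change of MSUS against control samples (horizontal axis) with its 95% interval from limma voom, for the 50 genes tested, grouped by role. The 5 genes in orange have an unadjusted p under 0.05, and the intervals of the other genes cross 0.

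*Uhrf1*, which guides DNMT1 to hemimethylated CG at replication, had the largest decrease in the fitted values. It ranged from 3.57 to 4.14 log2 CPM with a median of 4.03 in controls and from 2.76 to 4.41 with a median of 3.65 in MSUS samples. Of the MSUS samples, 6 of 7 lay below the control mean, but MSUS 11 held the highest value of all and MSUS 1 the lowest, so the groups overlapped. Its log2 fold change was -0.36 (SE 0.18, 95% interval -0.74 to 0.03, limma p = 0.0684, adjusted p = 0.878, exact permutation p over samples = 0.150). It was -0.48 without MSUS 11 and -0.43 without control 14, where it passed the threshold of the study, and -0.20 without MSUS 1. MSUS 11 also had the highest round spermatid marker level, 3.85 against 2.45 to 3.01 log2 CPM in the other MSUS samples, and the part of this in the *Uhrf1* value was not tested.

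The DNA methyltransferases themselves did not pass the test. *Dnmt1* ranged from 4.75 to 5.18 log2 CPM in controls and 4.95 to 5.30 in MSUS samples, with a log2 fold change of 0.09 (95% interval -0.09 to 0.27). For *Dnmt3a* it was 0.07 (-0.13 to 0.27), and for *Dnmt3b* 0.21 (-0.32 to 0.75), or a difference of -0.01 with the shared feature added. Of the oxidizing enzymes, *Tet1* had 0.28 (-0.14 to 0.70), *Tet2* 0.24 (-0.08 to 0.56) and *Tet3* 0.14 (-0.22 to 0.50). None of these 6 genes had an interval that left out 0.

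*Mbd3*, a NuRD subunit, was described because it had the next smallest p among lower genes. It ranged from 6.22 to 6.39 log2 CPM in controls (median 6.25) and from 6.02 to 6.40 in MSUS samples (median 6.17). In 5 of 7 MSUS samples the value was below every control, while MSUS 11 was above every control. This gave a log2 fold change of -0.08 (SE 0.06, 95% interval -0.21 to 0.06, limma p = 0.242, adjusted p = 0.894, exact permutation p over samples = 0.196).

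*Hdac3*, the catalytic subunit of the NCoR and SMRT corepressor complexes, was the only gene of the group lower in MSUS samples at the threshold of the study. Its values ran from 6.78 to 7.0 log2 CPM in controls (median 6.83) and from 6.48 to 6.90 in MSUS samples (median 6.68). MSUS samples lay below every control in 5 of 7 cases, and MSUS 1 and MSUS 23 were within the control range. The fitted log2 fold change was -0.15 (SE 0.07, 95% interval -0.29 to -0.01, limma p = 0.0364, adjusted p = 0.878, exact permutation p over samples = 0.0326), a level 0.900 times that of controls. It no longer passed when MSUS 5, MSUS 6, MSUS 11, MSUS 26, control 14, control 22 or control 24 was left out, with unadjusted limma p-values of 0.0509 to 0.0911 and a log2 fold change of -0.15 to -0.12.

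*Hdac5*, a class IIa deacetylase that shuttles between nucleus and cytoplasm, had the largest increase. Controls ranged from 4.08 to 4.54 log2 CPM (median 4.25) and MSUS samples from 4.13 to 4.95 (median 4.62). Except for MSUS 13 at 4.13 and MSUS 5 at 4.50, every MSUS sample exceeded the highest control, or 5 of 7. In the fit the log2 fold change was 0.31 (SE 0.12, 95% interval 0.06 to 0.57, limma p = 0.0195, adjusted p = 0.878, exact permutation p over samples = 0.0274), or 1.24-fold, and 0.27 without control 12, when the unadjusted limma p was 0.0519. *Hdac4* of the same class had 0.26 (-0.05 to 0.56) and *Hdac6* 0.14 (-0.01 to 0.29), both short of the threshold. *Hdac7*, the third class IIa gene tested, had -0.27 with a wide interval (-1.21 to 0.67). The sirtuins lay close to 0, from -0.13 (*Sirt6*, which acts on H3K9 acetylation) to 0.01 (*Sirt1*).

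All 5 H3K9 methyltransferases had a fold change above 0, from 0.05 to 0.22, and 1 of them passed the test. *Ehmt1*, which forms the H3K9 dimethyltransferase with *Ehmt2*, ranged from 5.61 to 6.07 log2 CPM in controls (median 6.03) and from 5.98 to 6.33 in MSUS samples (median 6.07). Control 9 and control 12 were low, at 5.61 and 5.66, and the other 4 controls lay among the MSUS samples. The resulting log2 fold change was 0.22 (SE 0.09, 95% interval 0.03 to 0.41, limma p = 0.0286, adjusted p = 0.878, exact permutation p over samples = 0.0559), or 1.16-fold. It was 0.16 without control 9 or without control 12, 0.20 without MSUS 5 and 0.19 without MSUS 26, and in these 4 cases it no longer passed (unadjusted limma p-values from 0.0553 to 0.0877). *Ehmt2* had 0.11 (-0.03 to 0.25).

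The H3K4 and H3K79 methyltransferases also all lay above 0, from 0.05 (*Kmt2b*) to 0.29, and again 1 of 5 passed. *Kmt2a*, which keeps H3K4 methylated at promoters of developmental genes, ranged from 5.77 to 6.52 log2 CPM in controls (median 6.0) and from 6.07 to 6.82 in MSUS samples (median 6.24). Control 10 exceeded 5 of the 7 MSUS samples, the other controls were at 6.03 or below, and MSUS 26 was highest. For *Kmt2a* the log2 fold change was 0.29 (SE 0.12, 95% interval 0.03 to 0.55, limma p = 0.0303, adjusted p = 0.878, exact permutation p over samples = 0.0635), or 1.22-fold. Without MSUS 26 it was 0.21 and no longer passed, and without both MSUS 26 and control 10 it was 0.32 and passed. It also no longer passed without MSUS 5, control 9, control 12, control 22 or control 24, with unadjusted limma p-values of 0.0506 to 0.0750. *Kmt2d* had 0.29 (-0.06 to 0.64), *Kmt2c* 0.21 (-0.04 to 0.46) and the H3K79 methyltransferase *Dot1l* 0.20 (-0.02 to 0.42).

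Of 9 demethylases, 7 lay above 0 with a median of 0.033, and *Kdm4b* passed the test. *Kdm4b*, an H3K9 and H3K36 demethylase, ranged from 6.40 to 6.91 log2 CPM in controls (median 6.65) and from 6.62 to 7.33 in MSUS samples (median 6.98). In 4 of 7 MSUS samples it was above every control, and control 10, control 22 and control 24 lay among the MSUS samples. MSUS and control samples differed by a log2 fold change of 0.29 (SE 0.11, 95% interval 0.06 to 0.51, limma p = 0.0170, adjusted p = 0.878, exact permutation p over samples = 0.0420), or 1.22-fold, and the unadjusted p remained under 0.05 when any 1 of the 13 samples was left out. *Kdm4b* and *Uhrf1* are neighbours on chromosome 17 of GRCm38, both on the plus strand and 2575 bases apart in GENCODE vM21, with fold changes of opposite sign. *Kdm6b*, which removes H3K27 methylation, had 0.18 (-0.04 to 0.40) and *Kdm1a* -0.05 (-0.15 to 0.06).

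The acetyltransferases and Polycomb genes gave no call. Of 5 acetyltransferases 4 lay above 0, among them *Crebbp* at 0.15 (-0.07 to 0.37) and *Ep300* at 0.11 (-0.10 to 0.32). In Polycomb repressive complex 2 the catalytic subunits *Ezh1* at -0.03 (-0.17 to 0.11) and *Ezh2* at -0.02 (-0.19 to 0.15) were close to 0.

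**Figure D3:**
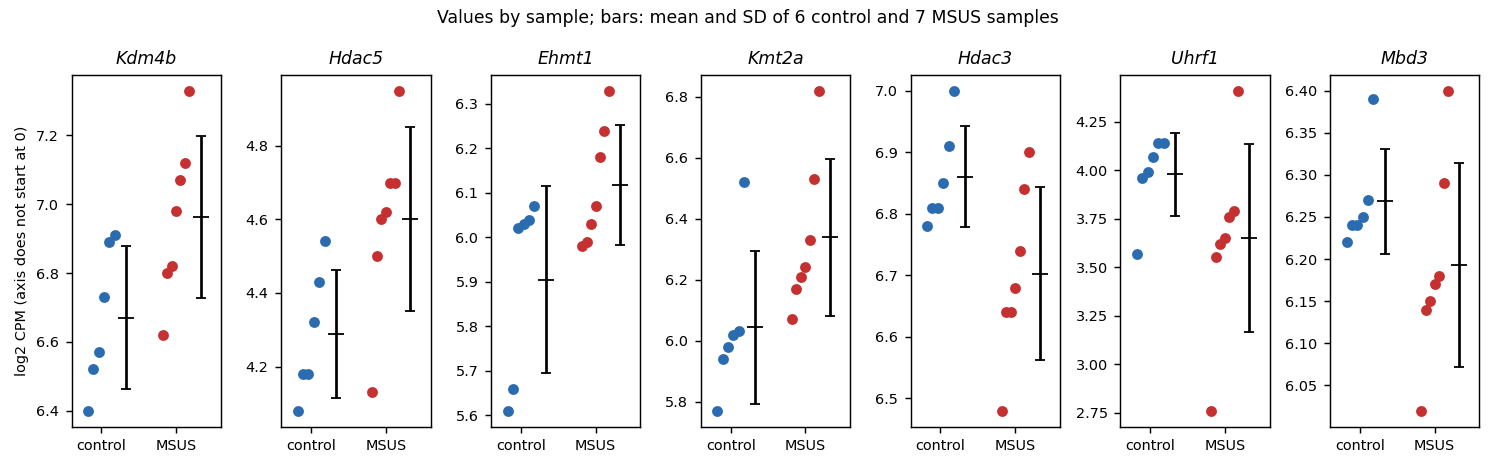
Values of the 7 genes described sample by sample (vertical axes, log2 CPM, each with its own range that does not start at 0). Points are samples (blue control, n = 6, red MSUS, n = 7), sorted within a group, and bars are mean and SD. In each gene the groups overlap, and *Kmt2a* in control 10 (6.52) stands above the other controls.

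Some samples stood high or low for many of the genes at once. MSUS 26 held the highest value of all 13 samples for 25 of the 50 genes, and control 10 was the highest control for 24 of them. At the other end, control 9 was the lowest of all samples for 12 genes. These counts are not set beside those of all genes tested, so they mark no trait particular to this group. The pattern was clearest in the long genes but not limited to them. The class of 9000 bases or more gave 10 of these 25 genes and 9 of these 24. Shorter genes such as *Kat2a* (3269 bases) and *Kdm1a* (3028 bases) were also highest in MSUS 26. In the 10 genes with a longest transcript of 9000 bases or more (*Kmt2a*, *Kmt2c*, *Kmt2d*, *Tet1*, *Tet2*, *Tet3*, *Crebbp*, *Ep300*, *Dnmt3a* and *Kdm5a*), the median deviation from the gene mean was 0.60 log2 CPM in MSUS 26, 0.30 in MSUS 5 and 0.22 in control 10, against -0.29 in control 9. In the 7 genes under 2500 bases it ran from -0.10 in MSUS 26 and MSUS 5 to 0.17 in MSUS 11.

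**Figure D4:**
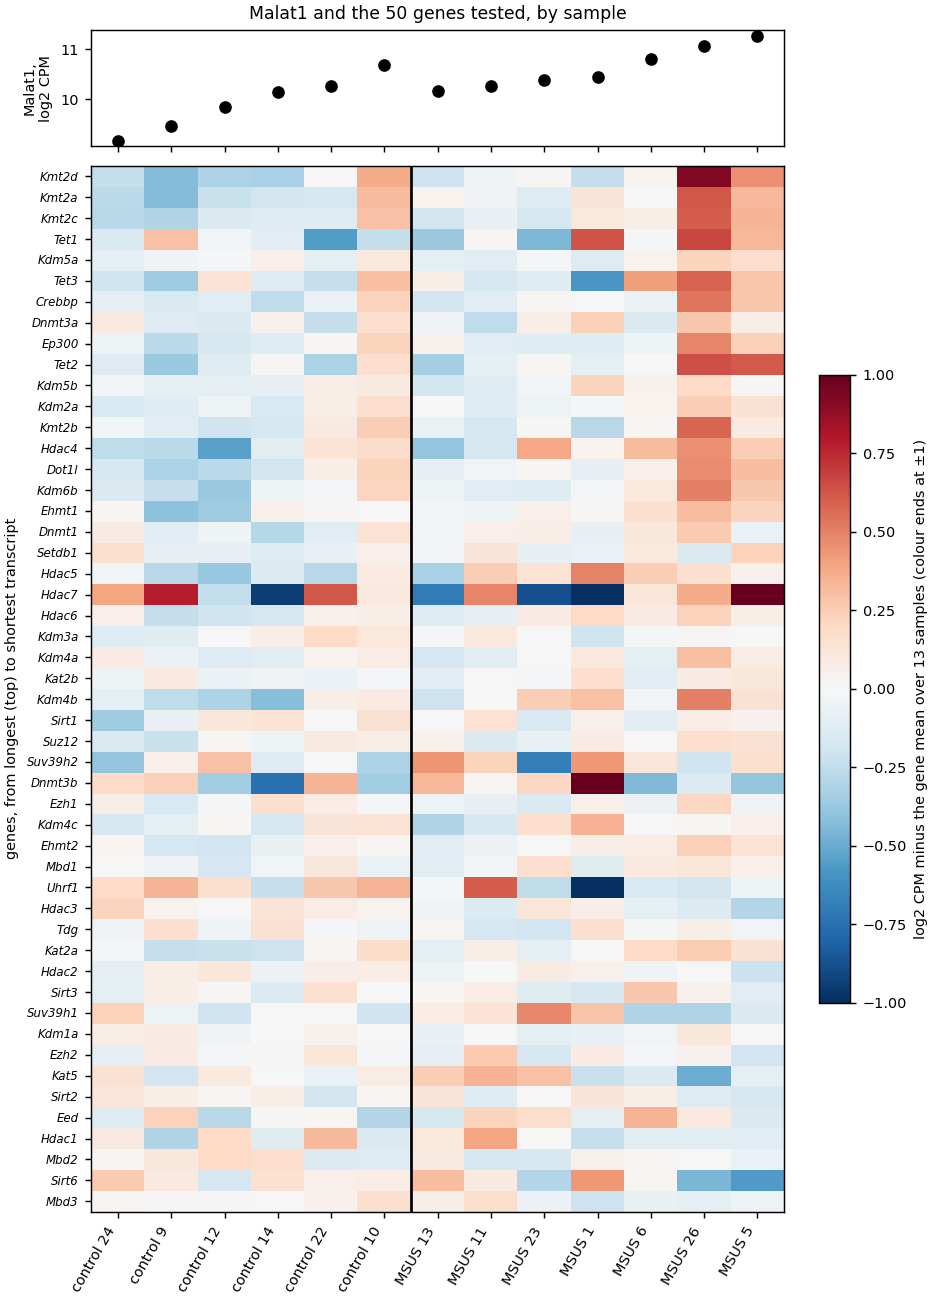
Deviation of each of the 50 genes from its mean over the 13 samples (colour, log2 CPM, ends at -1 and 1), with genes from longest (top) to shortest transcript and samples by group and by *Malat1*, whose log2 CPM is plotted above. MSUS 26 and MSUS 5 are red in the long genes at the top, and so is control 10, the control with the highest *Malat1* (10.69).

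The fold change in MSUS samples ran with transcript length in the same way. All 10 genes of 9000 bases or more lay above 0 with a median log2 fold change of 0.18, and 1 of 7 genes under 2500 bases did, with a median of -0.03. The Spearman correlation of length with log2 fold change was 0.62 across the 50 genes and 0.20 across 13984 genes tested with a known length (across genes, which share the same 13 libraries and are not independent). Over other genes tested, 69.7% of those of 9000 bases or more lay above 0 (median 0.072, 567 genes) and 38.1% of those under 2500 bases (median -0.043, 4647 genes). The genes of this group had a median length of 4615 bases, against 3299 for all genes with a length. Each sample was also corrected for GC content and for summed exon length, which is not the longest transcript used above. The median log2 fold change of the 50 was then 0.027 and 5 genes passed, beside 5.45% of all genes tested. Of the 5, 4 were as before, with *Uhrf1* (-0.37) in place of *Hdac5*. *Hdac5* then had 0.24 (unadjusted limma p-value of 0.0565).

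**Figure D5:**
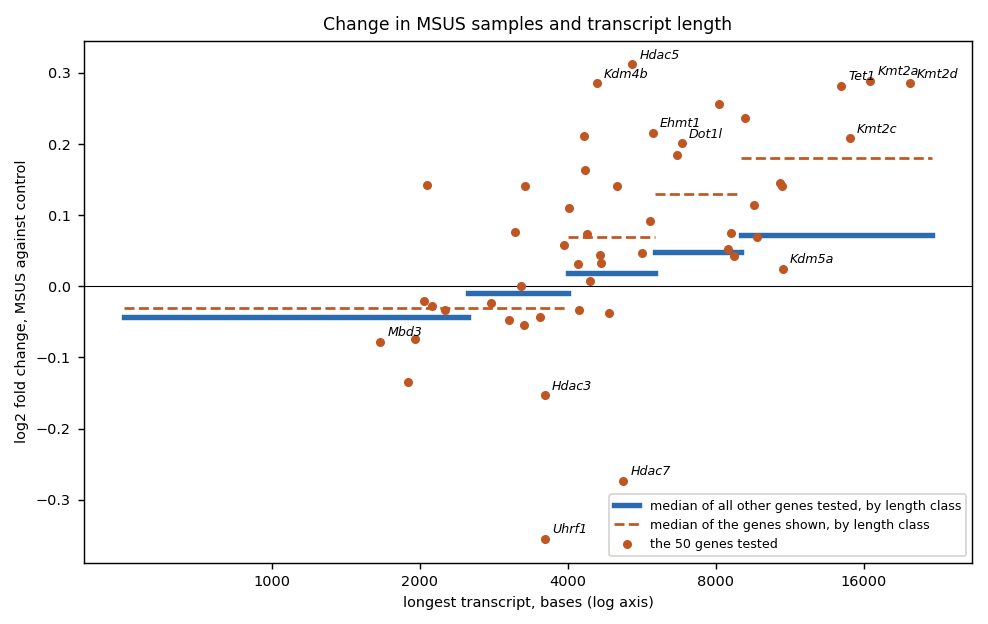
Log2 fold change in MSUS samples (vertical axis) against the longest transcript of the gene (horizontal axis, log scale, bases) for the 50 genes (orange points). Blue bars are medians of all other genes tested and dashed orange lines medians of these genes, in 5 length classes. The medians rise from -0.043 to 0.072 in other genes and from -0.03 to 0.18 in this group.

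Several of these genes moved with *Malat1* from mouse to mouse. With group means removed, 10 of the 50 genes had an adjusted Pearson p under 0.05 against *Malat1*, all with r above 0, and 8 had an adjusted Spearman p under 0.05 (permutation test over the 13 samples, adjusted over 50 relations). Past both were *Tet2*, *Suz12*, *Kmt2a*, *Kmt2c*, *Dot1l*, *Kdm2a* and *Kdm6b*. A Pearson r of 0.6 or more, a limit chosen after values were seen, was found in 15 of the 50 genes (30.0%), beside 5.94% of all genes tested with a length, and r was above 0 in 72.0% and 50% of them. The median r was 0.70 in the 10 genes of 9000 bases or more and 0.43 in other genes of that length. *Kmt2c* was strongest, with Pearson r = 0.83 (permutation p = 0.00031, adjusted 0.0107) and Spearman rho = 0.84 (permutation p = 0.00069, adjusted 0.0316), r = 0.87 in controls and 0.85 in MSUS samples. Without the 2 samples farthest from the median of *Malat1*, r was 0.73. *Hdac3* had r = -0.56 (permutation p = 0.0462, adjusted 0.115) and rho = -0.42 (permutation p = 0.151, adjusted 0.280), and r was -0.37 without the 2 farthest samples.

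The calls changed when measures of the libraries entered the fit. *Malat1* averaged 9.93 log2 CPM in controls and 10.63 in MSUS samples. A covariate that differs between the groups takes up part of the group difference, so its part and that of the group cannot be told apart here. With the level of *Malat1* as a covariate 0 of the 50 genes had a limma p under 0.05 (beside 2.78% of all genes tested) and the median log2 fold change was -0.033. The fold change of *Kmt2a* was then 0.01, that of *Ehmt1* 0.07, that of *Kdm4b* 0.14, that of *Hdac5* 0.25 and that of *Hdac3* -0.06. With the share of counts on mitochondrially encoded genes as a covariate, 0 of 50 passed as well (beside 2.79%), with 0.15 for *Kmt2a*, 0.17 for *Ehmt1*, 0.23 for *Kdm4b*, 0.28 for *Hdac5* and -0.08 for *Hdac3*. That share was 1.98% ± 0.423 in controls and 2.48% ± 0.573 in MSUS samples (exact permutation p = 0.111). With the elongated spermatid marker level as a covariate, 14 of 50 passed, 13 of them higher, beside 8.35% of all genes tested.

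Single samples mattered as well. Without MSUS 26, 2 of the 50 genes passed (*Hdac5* and *Kdm4b*, beside 5.02% of all genes tested), and without control 10 there were 12 (beside 7.70%). Without both of these samples 8 passed, all higher in MSUS samples (*Dot1l*, *Ehmt1*, *Hdac5*, *Kdm4b*, *Kdm6b*, *Kmt2a*, *Kmt2c* and *Kmt2d*), beside 6.91%. Leaving out MSUS 5 or control 12 left 2 (beside 3.74% and 3.99% of all genes tested), leaving out control 9 left 3 (beside 3.78%), and leaving out MSUS 13 gave 11 (beside 7.15%).

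Patterns over the 13 samples were also compared between the genes tested, with the means of control and MSUS samples removed. *Kmt2a* was most like *Kmt2c* (Pearson r = 0.96), *Ep300* (0.93) and *Kdm6b* (0.89) among these genes. *Kdm4b* was most like *Kdm4a* (0.92), *Hdac6* (0.88) and *Kdm5b* (0.84), and *Ehmt1* was most like its partner *Ehmt2* (0.88). For *Hdac3* the nearest was *Suv39h1* (0.78), and for *Hdac5* the nearest were *Kdm5b* and *Hdac6* (both 0.65). These correlations describe the same 13 libraries and carry no test.

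Other genes of DNA methylation and chromatin regulation were read from a list of 94 genes outside the group, of which 91 were tested. *Phf19*, *Pcgf2* and *Setd7* did not pass the filter on low counts. In MSUS samples 6 of the 91 had an unadjusted limma p under 0.05 (6.59%, beside 5.42% of all genes tested), and all 6 were higher. They were *Zbtb33* (Kaiso, a methyl-CpG binder) at a log2 fold change of 0.24, the Polycomb subunit *Cbx6* at 0.26, the H3K4 methyltransferase *Setd1a* at 0.24, the H3K4 demethylase *Kdm5c* at 0.22, and the chromatin remodellers *Chd3* at 0.24 and *Smarca2* at 0.17. Their limma adjusted p was 0.878, and 55 of the 91 lay above 0 with a median of 0.022.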

How the data were processed

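Libraries were prepared from 5 ng of total RNA per sample with a stranded kit and sequenced from sorted cells of 6 control and 7 MSUS males. The authors trimmed the reads with Trim Galore 0.6.5, assigned them with Salmon 1.1.0 to GENCODE vM23 transcripts (GRCm38) and deposited estimated counts per gene, with no normalization. How transcripts were summed to genes and named is not given in the sources used here. Features without a gene name (27170 of 54281) took 20.7% to 26.7% of each sample's counts and entered neither library sizes nor tests, so that reads of a named gene placed on such a feature are missing from its value.

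Estimated counts were first rounded. Genes were kept by filterByExpr, scaled by TMM (edgeR 4.0.16, R 4.3.3) and tested with limma 3.58.1 voom. TMM and voom follow the study's methods, and no covariate was used. Levels are given as log2 CPM (prior count 2), per kilobase of summed exons where given as log2 RPKM. Samples held 9776853 to 14383367 counts on named genes, and in genes with few counts, such as *Hdac7*, counting error adds to the spread between mice. For adjusted p-values the Benjamini-Hochberg method was applied to all genes tested. Alternatives were edgeR's quasi-likelihood test, DESeq2 1.42.0, other scalings and filters, 3 covariates, a correction for length and GC content, and leaving out samples. The scripts were tested on simulated data.

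For coordinates, lengths and GC content GENCODE vM21 (GRCm38) was used, which matched 97.0% of genes tested, and promoters from a RefSeq table of GRCm38.p6. The 52 genes, the role groups, the list of other genes and the marker lists were chosen with earlier results of these data known. Genes described by sample were those with an unadjusted p under 0.05 and, in each direction, the 3 with the lowest p. Genes described by level were the highest and lowest per length in each of 10 role groups. The other fold changes named were chosen after values were seen, as were the printed promoters and the fit without MSUS 26 and control 10. The deposited table holds no column of the authors' own comparisons.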

Additional observations from a re-analysis of the deposited data

Results flagged for a closer look

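In 11 of 120 groups of values examined, 1 sample lay far from the others of its group by Dixon's criterion, where chance alone flags about 1 in 20 groups, or 6.0. On the log2 CPM scale, *Kmt2a* in control 10 (6.52, other controls 5.77 to 6.03), *Kmt2c* in control 10 (8.72, others 8.12 to 8.30) and *Mbd3* in control 10 (6.39, others 6.22 to 6.27) were high, and *Kmt2b* was high in MSUS 26 (7.48, others 6.62 to 6.98). *Kat2b* was high in control 9 (7.01, others 6.85 to 6.90). Low values were those of *Uhrf1* in control 14 (3.57, others 3.96 to 4.14), *Sirt2* in control 22 (5.33, others 5.53 to 5.63), *Hdac2* in MSUS 5 (6.34, others 6.51 to 6.64) and *Kdm3a* in MSUS 1 (6.80, others 6.98 to 7.10). Among the marker lists, round spermatid markers were high in MSUS 11 (3.85, others 2.45 to 3.01) and Leydig cell markers low in control 9 (1.35, others 2.54 to 3.18).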

How the results depend on the processing

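No paired analysis was possible because no mouse number occurs in both groups. In every setting run, 0 genes of the whole table had an adjusted p under 0.05 (at an unadjusted p, 781 in limma voom, 793 in edgeR's quasi-likelihood test and 835 in DESeq2). The 5 genes that passed at an unadjusted p under 0.05 were the same with edgeR, DESeq2, limma trend, the other scalings and either filter. Their number was 14 with the elongated spermatid covariate, 0 with the mitochondrial share, 0 with *Malat1*, 0 at p under 0.01, 2 to 12 with 1 sample left out and 8 without MSUS 26 and control 10. The median log2 fold change of the 50 genes was -0.033 with *Malat1* and 0.037 to 0.080 with 1 sample left out. Their median control value was 5.61 log2 CPM with unnamed features kept in library sizes.

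With *Malat1* as a covariate, 22 of the 50 genes changed sign, and among those named with a fold change these were *Sirt6* (0.10), *Kmt2b* (-0.14), *Tet3* (-0.14), *Sirt1* (-0.11), *Kmt2d* (-0.11), *Kmt2c* (-0.10), *Ep300* (-0.09), *Crebbp* (-0.06), *Tet2* (-0.06), *Dot1l* (-0.05), *Kdm6b* (-0.05) and *Hdac4* (-0.03). With the mitochondrial share *Sirt1* (-0.07), *Tet3* (-0.05), *Sirt6* (0.01) and *Kmt2b* (-0.02) changed sign, and with the length and GC correction *Dnmt3a* (-0.02) and *Kmt2b* (-0.02). With 1 sample left out, *Kmt2b* ran from -0.04 (without MSUS 26) to 0.11, *Ezh2* from -0.07 to 0.01 (without MSUS 5) and *Sirt1* from -0.06 to 0.04. *Sirt1* was also at -0.02 with sample quality weights, -0.01 with library size alone and just below 0 with the elongated spermatid covariate. With the longest transcript as length, the level differences of *Dnmt1* and *Dnmt3a* (-0.17), *Mbd2* and *Mbd3* (0.38), *Ep300* and *Crebbp* (0.22) and *Suv39h1* and *Suv39h2* (0.16) changed sign. By that length *Kmt2c* and *Kmt2d* (-0.10, adjusted permutation p = 0.0819), *Hdac4* and *Hdac5* (-0.09, adjusted permutation p = 0.237) and *Suv39h1* and *Suv39h2* (adjusted permutation p = 0.267) were no longer separated. In controls alone 15 of 22 pairs had an adjusted permutation p under 0.05. The cause of these changes was not tested. Genes with few counts, such as *Hdac7*, could hide changes as large as those seen elsewhere.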

Other observations

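*Neat1*, another nuclear-retained noncoding RNA, ranged from 3.92 log2 CPM in control 24 to 5.03 in control 10 among controls, and from 4.38 in MSUS 1 to 5.29 in MSUS 5 among MSUS samples. Control 24 and control 10 were also the lowest and the highest control for *Malat1* (9.16 and 10.69), and MSUS 5 was the highest MSUS sample for both. *Lyz2*, a macrophage marker, was listed at 0 in all 13 samples, and *Cd68*, *Csf1r* and the other macrophage markers averaged -1.38 ± 0.24 log2 CPM in controls and -1.36 ± 0.43 in MSUS samples together with it.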
